A study of Chlamydomonas reinhardtii with 2 samples.

Results

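Photosystem I subunits encoded in the nucleus of the unicellular green alga Chlamydomonas reinhardtii are described here as transcript levels in the strains CC5325 and CC125. Members were the reference genes on a nuclear chromosome whose symbol is PSA followed by 1 capital letter and at most 1 digit, with no minimum level. This rule took 10 of 17693 reference genes, on 8 chromosomes: PSAD1, PSAE1, PSAF1, PSAG1, PSAH1, PSAI1, PSAK1, PSAL1, PSAN1 and PSAO1. It used names only and no measured value, though it was chosen with earlier results of these data known.

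Photosystem I is the light-driven enzyme of the thylakoid membrane that takes electrons from plastocyanin on the lumenal side and passes them to ferredoxin on the stromal side. Its reaction centre proteins are made from plastid genes, and most of the smaller subunits around them come from nuclear genes, are made in the cytosol and are imported. PSAD and PSAE form the stromal surface where ferredoxin docks, PSAF binds plastocyanin, and PSAN lies on the lumenal side. PSAG and PSAK sit at the edges of the complex, next to the light-harvesting antenna. PSAH, PSAI, PSAL and PSAO lie on the opposite side, where the antenna of photosystem II can attach.

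The series compared CC5325 with CC125, both laboratory strains with the genotype given as wild type, with 1 RNA sequencing library each. Both were grown with acetate in the light (TAP medium, 25 °C, 20 μmol photons per m2 per s). Per the protocol ribosomal RNA was removed ahead of library preparation. With 1 library per strain no difference has a replicate check, no p-value is given, and the strain, the culture and the library cannot be told apart. Levels are in TPM, a length-scaled relative abundance, and rest on the deposited coverage, the mean read depth over the bases of a gene.

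Read depth over the genes set the precision of each value, and it was low although the libraries were not small. Aligned sequence came to 5.81 gigabases for CC5325 and 3.18 gigabases for CC125. Little of it fell on annotated genes: CC5325 gave them 2507 TPM and CC125 1576 TPM, where assembled loci had 1000000 TPM. Where the rest lay was not tested. Gene spans held at most 108004 reads in CC5325 and 34287 reads in CC125, each of 150 bases, and the 10 genes held at most 314 and 62.3 of these. Reads per gene are coverage times span over read length, an upper limit because spans hold introns. Per member this gave 11 to 55 reads in CC5325 and 0 to 15 in CC125, where 9 of 10 members had fewer than 10 before rounding (PSAK1 9.60). Of 3 strain marker genes with a symbol in the files, FUS1 and MTD1 (mating type) were listed at 0 in both libraries and NIT2 (nitrate assimilation) was at 0.0232 TPM in CC5325 and at 0 in CC125, so the strain labels could not be checked from them.

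All 10 genes were listed above 0 in CC5325 and 9 of 10 in CC125, while 53.3% and 21.2% of all reference genes were. They ranked among the more abundant genes of both libraries: each was in the top 1.95% of reference genes in CC5325, and the 9 listed genes were in the top 3.43% in CC125. Levels ran from 0.454 to 2.43 TPM in CC5325 (median 0.913) and from 0 to 1.22 TPM in CC125 (median 0.384). A level of 1 TPM was reached by 5 of them in CC5325 and by PSAE1 alone in CC125, against 1.18% and 0.735% of reference genes. Summed over the 10 genes the level was 10.8 TPM in CC5325 against 4.97 TPM in CC125, a ratio of 2.17 with a 95% counting interval of 1.65 to 2.90. That interval treats mates as independent, and no wider one was made for the sum. The ratio was 1.45 with the median of abundant genes set to 0, 1.14 without the 20 most abundant genes, and 1.68 on the deposited scale without PSAG1. For all reference genes together the summed level was 2507 TPM in CC5325 against 1576 TPM in CC125, a ratio of 1.59. The 10 genes made up 0.431% of that sum in CC5325 and 0.315% in CC125.

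**Figure D1:**
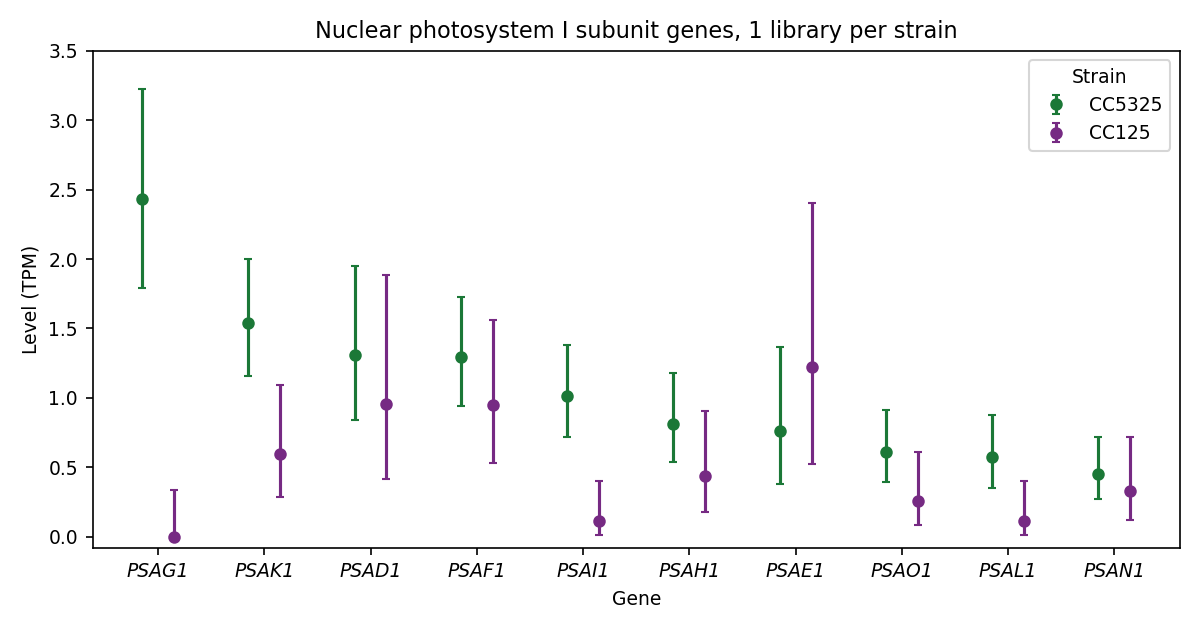
Level in TPM (y axis) of each nuclear photosystem I subunit gene (x axis) in CC5325 (left of each pair) and CC125 (right), with bars for the exact 95% Poisson interval of the estimated reads, except that the bar at 0 reaches the limit that a count of 0 allows, taken as 3 reads. PSAG1 is highest in CC5325, at 2.43 TPM, and at 0 in CC125, and on this deposited scale PSAE1 is the only gene with the higher value in CC125.

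By deposited TPM, 9 of the 10 genes had the higher value in CC5325 and PSAE1 the lower, though PSAD1, PSAF1 and PSAN1 turn over with the median of abundant genes set to 0, as do these and PSAH1 without the 20 most abundant genes. The ratio was above 1 in 46.7% of all reference genes and in 72.1% of the 891 genes that average 0.1 TPM or more. A 2-fold difference was set on log2((TPM + 0.1)/(TPM + 0.1)), CC5325 over CC125, a scale that shrinks the differences of genes near 0.1 TPM. By this rule 4 genes were higher in CC5325 (PSAG1, PSAI1, PSAL1 and PSAK1), none was lower, and 6 lay within 2-fold. PSAG1 passed with its listed 0 in CC125 taken as a level of 0, and without PSAG1 3 genes were higher. Both rescalings gave 3 higher and 1, PSAE1, lower. Of the 891 genes, 258 were at least 2-fold higher and 171 lower with the median of abundant genes set to 0. Without the 20 most abundant genes these counts were 274 and 199.

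Over all reference genes 3.96% were at least 2-fold higher and 0.803% at least 2-fold lower. Most of those genes lay near 0 and could not reach that fold. Among the 891 genes of 0.1 TPM or more, 43.3% were higher and 9.76% lower, so a share of 4 in 10 is near the background at such levels. The median log2 ratio was 0.87 over the 10 genes and 0.75 over these 891. With the median of abundant genes set to 0 the same medians were 0.29 and 0.16. Without the 20 most abundant genes they were 0.11 and 0.16, so that the 10 genes then lay below the 891.

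The stromal subunits held the first and second place by value in CC125. PSAD1 (Cre05.g238332, chromosome 5, 2350379 to 2351454, minus strand) encodes the stromal subunit that binds ferredoxin. Its coverage was 3.35 in CC5325 and 1.10 in CC125, its level 1.31 and 0.958 TPM, and its estimated reads at most 24 and 8. The scaled coverage ratio, CC5325 over CC125, was 1.37 with a 95% counting interval of 0.588 to 3.48, so a difference was not detectable at this depth. This ratio takes coverage times each library's median TPM per unit of coverage (0.392 in CC5325 and 0.868 in CC125), and its interval is as narrow as the depth permits.

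PSAE1 (Cre10.g420350, chromosome 10, 339632 to 340505, minus strand), the other stromal subunit, measured 0.762 TPM in CC5325 against 1.22 TPM in CC125, out of at most 11 and 8 reads. It was the seventh member in CC5325 and the first in CC125. The ratio of 0.624 had an interval of 0.227 to 1.78 and took in equality.

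For both subunits of the lumenal side the ratio took in equality as well. PSAF1 (Cre09.g412100, chromosome 9, 5932545 to 5934605, minus strand), which guides plastocyanin to the reaction centre, measured 1.29 TPM in CC5325 against 0.946 TPM in CC125. With at most 45 and 15 reads it had the most reads of any member in CC125, and its ratio of 1.37 had an interval of 0.740 to 2.61. PSAN1 (Cre02.g082500, chromosome 2, 1303115 to 1305454, plus strand), a peripheral lumenal subunit, was the lowest member in CC5325, at 0.454 TPM against 0.330 TPM in CC125. Its reads were at most 18 and 6, and its ratio was 1.38 (0.515 to 4.16).

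Both subunits next to the antenna passed the 2-fold rule. PSAG1 (Cre12.g560950, chromosome 12, 6981511 to 6982674, plus strand), a membrane subunit at the antenna contact, was the most abundant member in CC5325. Its coverage there was 6.20 and its level 2.43 TPM, out of at most 48 reads, and in CC125 it was listed at 0. At the depth of CC125 a count of 0 allows up to 0.336 TPM over the gene span (3 reads), below the lower end of the CC5325 interval (1.79 to 3.22 TPM). No fold is given against a listed 0, since the values do not tell a gene without reads from a gene without an estimate. Of 75 nuclear genes with a symbol starting RPL or RPS, 2 were listed at 0 in CC5325 and 2 in CC125. Of 9 photosystem I antenna genes, 9 were listed above 0 in CC5325 and 8 in CC125. The antenna gene at 0 in CC125, LHCA4, was at 1.12 TPM in CC5325, out of at most 73 reads. Of 10 nuclear photosystem II genes, 8 were listed above 0 in CC5325 and 6 in CC125. Why genes were listed at 0 was not tested. PSAG1 belongs to 11690 genes that the CC125 table gives as a block of zeros after all other rows. The same block held 5538 genes in CC5325.

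PSAK1 (Cre17.g724300, chromosome 17, 3508036 to 3510134, minus strand), related to PSAG1 in sequence, measured 1.54 TPM in CC5325 against 0.596 TPM in CC125. Its reads were at most 55 and 10, and the ratio of 2.58 had a counting interval of 1.25 to 5.46. Its log2 ratio of 1.23 fell below 1 under both rescalings, at 0.65 and 0.40.

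On the side where the antenna of photosystem II attaches, all 4 genes had the higher deposited value in CC5325, of which PSAH1 turns over without the 20 most abundant genes. PSAI1 (Cre03.g165100, chromosome 3, 3187972 to 3190248, minus strand), a small membrane subunit beside PSAL, measured 1.01 TPM in CC5325 against 0.112 TPM in CC125, out of at most 39 and 2 reads. PSAL1 (Cre12.g486300, chromosome 12, 1692983 to 1695101, plus strand), the larger membrane subunit there, measured 0.572 TPM in CC5325 against 0.111 TPM in CC125, out of at most 21 and 2 reads. The ratios were 9.04 (2.28 to 75.2) for PSAI1 and 5.17 (1.16 to 41.7) for PSAL1, and the 2 reads in CC125 hardly limit their upper ends. Both genes kept a log2 ratio above 1 in either rescaling, but PSAL1 lost it with a pseudocount of 0.5 TPM (0.81) or 1 TPM (0.50), and PSAI1 with 1 TPM (0.85).

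PSAH1 (Cre07.g330250, chromosome 7, 2614484 to 2616658, plus strand), needed for state transitions in Arabidopsis, measured 0.815 TPM in CC5325 against 0.438 TPM in CC125, out of at most 28 and 7 reads. PSAO1 (Cre07.g334550, chromosome 7, 3289861 to 3292179, minus strand), a small membrane subunit, measured 0.612 TPM in CC5325 against 0.260 TPM in CC125, out of at most 24 and 5 reads. Their ratios of 1.75 (0.770 to 4.89) and 2.35 (0.810 to 7.27) took in equality. The log2 ratio of PSAO1, 0.98, lay just below the 2-fold rule, and that of PSAK1 was the nearest above it.

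**Figure D2:**
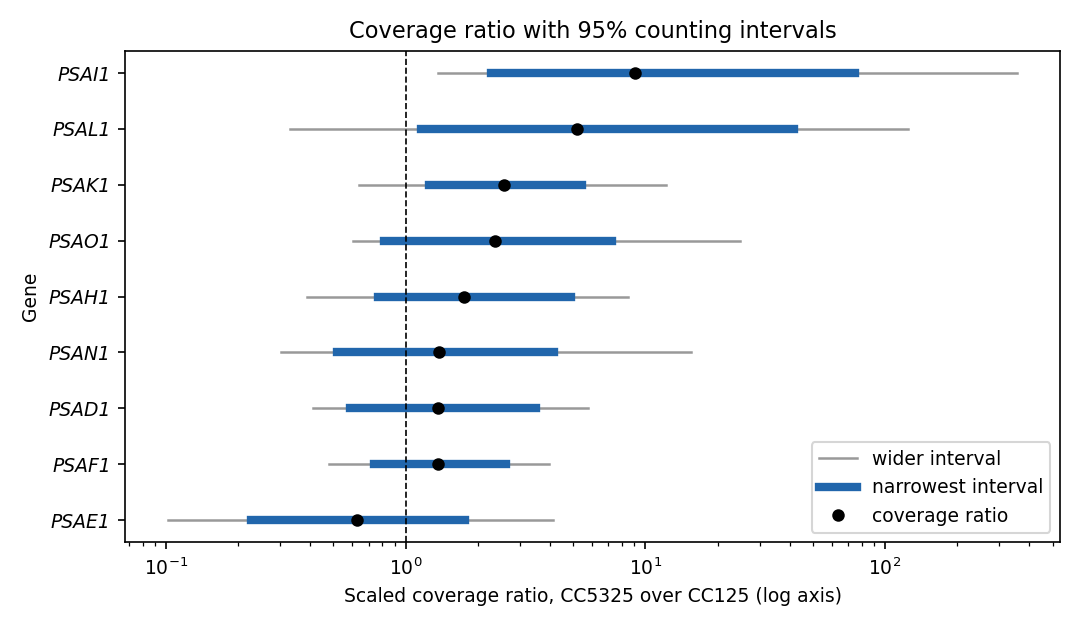
Scaled coverage ratio, CC5325 over CC125 (log x axis, dashed line at equality), for the 9 genes listed above 0 in both libraries (y axis), with the narrowest 95% counting interval (thick) and the wider one from recovered exonic lengths with mates counted once (thin), at the longest length found. PSAI1, PSAL1 and PSAK1 leave out equality with the thick bar and PSAI1 alone with the thin one, on the deposited scale, and at its shortest length found PSAI1 does not.

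Reads behind a value could be narrowed from the coverage itself. Coverage times exonic length was taken to be a whole number of aligned bases. Lengths of at least 100 bases were searched that give whole numbers in every library where the gene is listed, to within 1e-06 per base of length. Of 407 reference genes listed in both libraries with spans up to 2340 bases, 75.9% had such a length, so the premise does not hold for every gene. A single length was found for 6 members and a length with its multiples for 3 members, and PSAO1 gave none. The length for PSAD1 was 1076 bases, its whole span, so that no intron was counted out in this gene. PSAE1 gave 639 of 874 bases, PSAK1 1118 of 2099, PSAL1 1256 of 2119 and PSAF1 1526 of 2061. PSAH1 gave 1504 of 2175, though its TPM in CC5325 exceeds what its coverage gives (0.815 against 0.765 TPM), so its length is less sure.

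Aligned bases at these lengths show how little sequence some values rest on. PSAD1 had 3600 bases in CC5325 and 1187 in CC125. PSAF1 had 5034 bases in CC5325 and 1663 in CC125, and PSAK1 had 4387 and 767. PSAE1 had 1243 and 898 bases, which is 8.29 and 5.99 read lengths. PSAL1 had 1833 and 160 bases, so its CC125 value is little more than a single read length. PSAI1 had between 1122 and 5610 bases in CC5325, by the length taken, and between 56 and 280 in CC125, where 56 is less than a read length.

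With the longest of these lengths, or the span for PSAO1, and mates of a pair counted once, the interval of PSAI1 was 1.36 to 356 and still left out equality. That of PSAL1 became 0.328 to 124.5 and that of PSAK1 0.638 to 12.2. Together with PSAG1, this left 2 of the 4 genes past the 2-fold rule with an interval above equality. The interval of PSAG1 holds only if its listed 0 in CC125 is a count of 0, which the values do not tell. With the shortest length found, 127 bases for PSAG1 and 435 for PSAI1, the intervals of both took in equality and 0 of the 4 were left. That is an extreme setting, as the search cannot tell the shortest length from its multiples. For PSAG1 the search had CC5325 alone to go by.

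The order of levels differed between the libraries, and the steps between neighbours in it were not tested. From high to low it was PSAG1, PSAK1, PSAD1, PSAF1, PSAI1, PSAH1, PSAE1, PSAO1, PSAL1 and PSAN1 in CC5325. In CC125 it was PSAE1, PSAD1, PSAF1, PSAK1, PSAH1, PSAN1, PSAO1, PSAI1, PSAL1 and PSAG1. In each library the counting intervals of all 9 pairs of neighbours overlapped, which alone does not show that neighbours are equal. PSAG1 in CC5325 lay above the intervals of 7 other members, all but PSAK1 and PSAD1. PSAE1 in CC125 lay above those of PSAI1, PSAL1 and PSAG1. The highest member exceeded the lowest listed one by 5.35-fold in CC5325 and by 11.0-fold in CC125.

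Assembled loci were built from the same reads, so they are no independent check on the levels. The tables list loci built from the reads of 1 library beside the reference genes, and 5.01% of reference genes in CC5325 and 1.11% in CC125 had such a locus on their strand. All 10 photosystem I genes had one in CC5325, and PSAD1, PSAF1 and PSAH1 had one in CC125. In CC5325, 7 of them had a locus with exactly their own ends, as 0.786% of reference genes did. These loci repeated the coverage of the gene, 6.20 for PSAG1, except for PSAH1 (2.09 against 1.95). In CC125 only PSAD1 had such a locus, as 0.328% of reference genes did. Most reference genes lay near 0, so these shares are no background at the levels of the members.

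For 3 genes the CC5325 loci took in part of the annotated gene, and whether reads were missing from the rest was not tested. The PSAF1 span was broken into 2 loci, of 1089 and 519 bases, with coverages of 4.46 and 4.40 against 3.30 over the gene. For PSAN1 the locus took in 876 of 2340 bases with a coverage of 2.75 against 1.16, and for PSAI1 1374 of 2277 bases with 4.22 against 2.58. In CC125 the PSAF1 locus held 661 bases at a coverage of 1.85 against 1.09, and the PSAH1 locus 547 bases at 1.11 against 0.505. Genes directly beside the members were lower: of 20 such genes 15 were listed above 0 in CC5325 and 6 in CC125, and 3 and 0 of them reached 0.1 TPM.

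**Figure D3:**
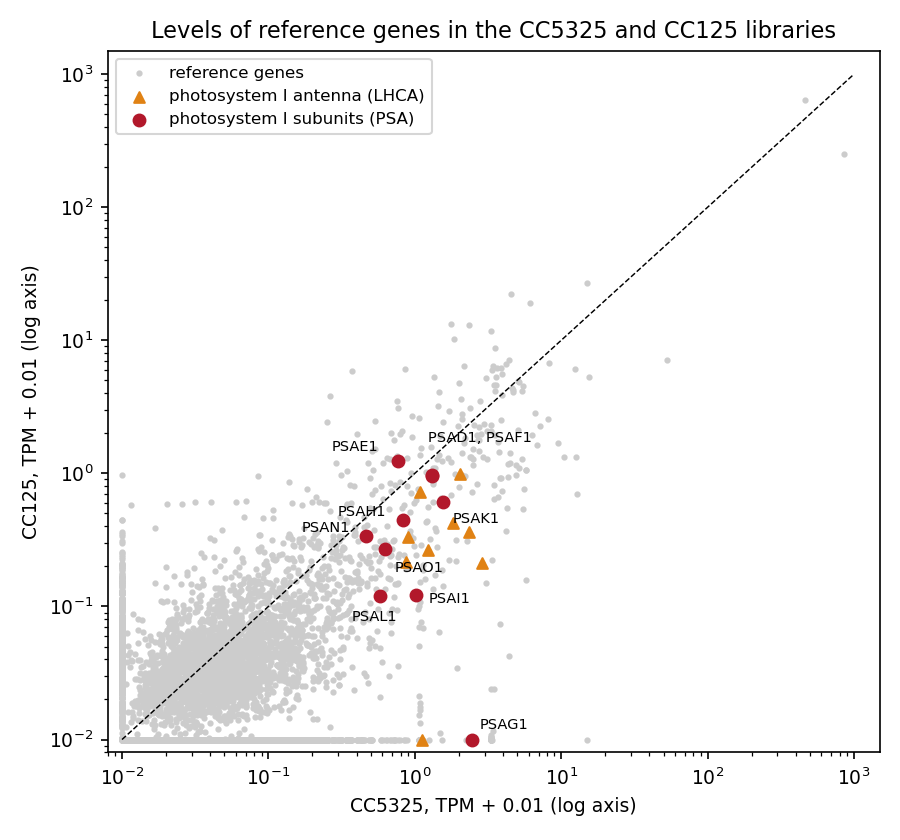
Level in CC5325 (x axis) against CC125 (y axis), each as TPM + 0.01 on a log axis, for reference genes listed above 0 in either library (grey), photosystem I antenna genes (triangles) and photosystem I subunit genes (circles), with a dashed line at equality. On the deposited scale PSAE1 is the only subunit gene above the line, and PSAG1 lies on the lower border, where CC125 is listed at 0.

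Genes for the rest of the photosystem I apparatus were taken as lists by symbol. Of 9 antenna genes (LHCA, proteins that collect light for photosystem I), 9 were listed in CC5325 and 8 in CC125, and 7 were at least 2-fold higher in CC5325, or 6 and 5 under the rescalings. LHCA9 measured 2.86 TPM in CC5325 against 0.204 TPM in CC125, LHCA7 2.35 and 0.356 TPM, and LHCA3 2.02 and 0.979 TPM. Their median log2 ratio was 1.89, against 0.87 for the subunit genes, and their summed level 14.2 TPM in CC5325 against 3.45 TPM in CC125. The difference between the lists was not tested, as each strain has 1 library.

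Plastid genes of photosystem I had the lower sum in CC5325. Of 6 rows (psaA in 3 exons, which are joined by trans-splicing in this alga, psaB, psaC and psaJ), 3 were lower by the 2-fold rule and none was higher. The 3 were exons 2 and 3 of psaA and psaB. For psaB the level was 0.229 TPM in CC5325 against 0.594 TPM in CC125, out of at most 10 and 12 reads, with a coverage ratio of 0.385 (0.145 to 0.949). The 6 rows summed to 2.11 TPM in CC5325 against 6.88 TPM in CC125. Coverage gives 2.08 TPM in CC5325 but only 3.66 TPM in CC125, because exons 2 and 3 of psaA have more TPM there than their coverage gives.

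The gene psaC, for the subunit that carries the terminal iron-sulfur clusters, measured 0.528 TPM in CC5325 against 0.734 TPM in CC125, with a coverage ratio of 0.690 (0.208 to 2.80). For exon 2 of psaA (psaA_exon2) the level was 0.252 TPM in CC5325 against 3.79 TPM in CC125, or 1.68 TPM there by coverage, from about 2 reads. Exon 3 (psaA_exon3) was at 0.497 TPM in CC5325 against 1.46 TPM in CC125, or 0.347 TPM there by coverage, so that its direction turns. No member's TPM departed from its coverage by as much.

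Nuclear factors for assembly of the complex and for psa RNAs lay near 0. Of 14 such genes 9 were listed in CC5325 and 1 in CC125. TAB2, a factor for psaB translation, was at 0.109 TPM in CC5325 and 0 in CC125, PYG7, an assembly factor in Arabidopsis, at 0.0311 TPM and 0, and RAA7, a psaA trans-splicing factor, at 0.0281 TPM and 0. RAA2, another trans-splicing factor, was listed at 0 in CC5325 and at 0.0260 TPM in CC125, from about 1 read. These counts are too low to compare.

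Carriers on either side of photosystem I had ratios on both sides of equality. FDX1, the main ferredoxin, measured 2.07 TPM in CC5325 against 3.64 TPM in CC125, with a coverage ratio of 0.568 (0.332 to 0.997). PCY1, plastocyanin, measured 2.41 TPM in CC5325 against 1.32 TPM in CC125, a ratio of 1.83 (0.987 to 3.88) that turns over without the 20 most abundant genes. FNR1, the reductase that passes electrons to NADP, measured 0.784 and 0.845 TPM. Of the 15 genes of this list 2 were higher by the 2-fold rule and none lower. The 2 were FDX5 (1.53 TPM in CC5325, at most 29 reads) and CYC6 (0.182 TPM, at most 5 reads), both listed at 0 in CC125. The counts were 1 higher and 1 lower with the median of abundant genes set to 0, and 2 higher and 1 lower without the 20 most abundant genes. The lower gene was FDX1 both times (log2 ratios of -1.37 and -1.70).

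Cytochrome b6f, the complex that hands electrons to plastocyanin, has 4 nuclear genes on the list. PETC1, the Rieske protein, measured 1.32 TPM in CC5325 against 0.600 TPM in CC125 and passed the 2-fold rule on the deposited scale but in neither rescaling. PETN1 measured 0.483 and 0.915 TPM and PETM1 0.379 and 0.332 TPM, both within 2-fold on the deposited scale, while PETN1 was at least 2-fold lower under both rescalings (log2 ratios of -1.39 and -1.66).

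Of the 10 nuclear photosystem II genes 5 were higher in CC5325 by the 2-fold rule, or 3 and 4 under the rescalings, and none was lower. Their median log2 ratio was 0.71. PSBQ1 and PSBO1, extrinsic subunits of the oxygen-evolving side, measured 3.38 and 3.08 TPM in CC5325 and 0.214 and 0.141 TPM in CC125. By coverage PSBQ1 has only 1.58 TPM in CC5325. PSBR1 measured 2.52 TPM in CC5325 against 2.29 TPM in CC125.

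**Figure D4:**
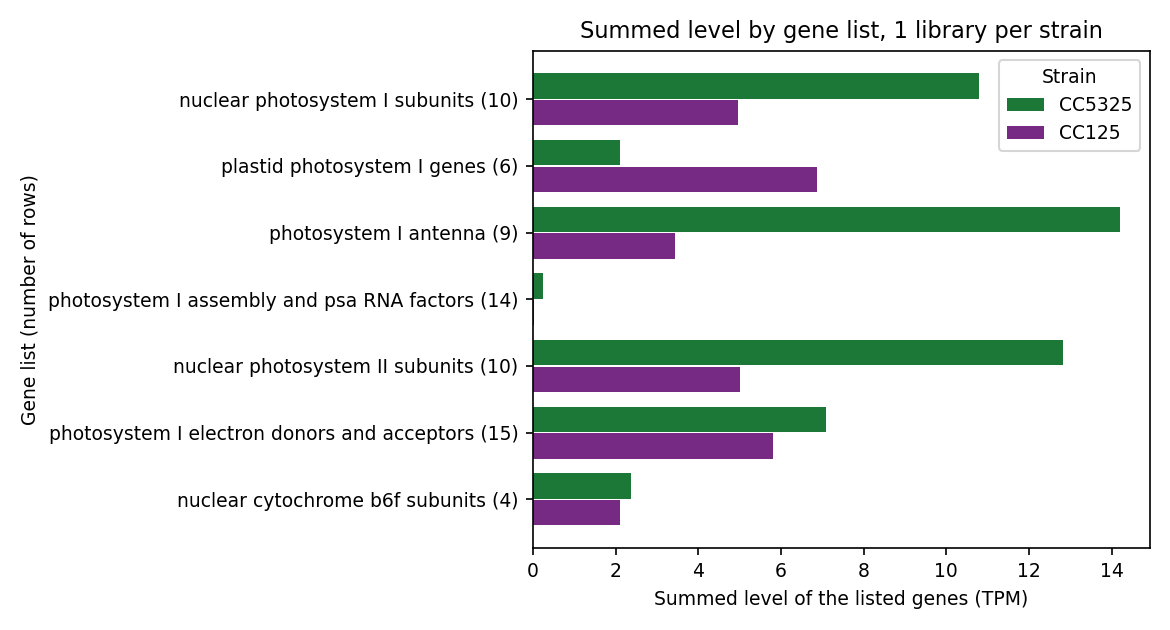
Summed level in TPM (x axis, from 0) of the genes of each list (y axis, number of rows in parentheses) in CC5325 (upper bar) and CC125 (lower bar), 1 library each, on the deposited scale. Subunit genes sum to 10.8 TPM in CC5325 against 4.97 TPM in CC125, a ratio of 2.17 that rescaling lowers to 1.45 or 1.14, and plastid photosystem I genes are the list with the longer bar in CC125.

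Genes most like the family were sought among nuclear genes with a symbol and at least 10 reads, by the distance of log2(TPM + 0.1) to the family median over the 2 libraries. The family median corresponds to 0.908 TPM in CC5325 against 0.381 TPM in CC125. Nearest was LHCA1, a photosystem I antenna gene, at 0.887 and 0.321 TPM (distance 0.19 on the log2 scale). FAP113, a flagellar associated protein gene, followed at 0.967 and 0.314 TPM (0.23), and ATS1 at 0.811 and 0.451 TPM (0.24). A likeness over 2 values describes level and ratio only.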

How the data were processed

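RNA sequencing of 1 library each of CC5325 and CC125 was analysed. StringTie 2.2.3 made the tables, and Trimmomatic, HISAT2 2.2.1 and FastQC 0.12.1 are also named, per the submitters' processing notes. Their settings, not given in the sources used here, could change any value. Per the file headers, the deposited coverage is a signal (mean reads per base), FPKM counts fragments per kilobase of gene and per 1000000 fragments, and the deposited TPM adds up to 1000000 over assembled loci, with reference gene rows on top. Gene identifiers and coordinates are those of the files (CC-4532 annotation, version 6.1). No sequence was used here.

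Ratios of estimated reads were given exact binomial (Clopper-Pearson) intervals at 95% and levels exact Poisson ones, with 3 reads as the limit of a count of 0. Both cover counting error only, with mates treated as independent. The members, the lists and the 2-fold rule were chosen with earlier results of these data known. Every member is named, and of each other list up to 3 genes with the highest mean TPM and any listed at 0 in CC5325 only. Beyond these, FDX5, CYC6 and psaB are named because they passed the 2-fold rule, and LHCA4 because it was listed at 0 in CC125. The alternatives were pseudocounts of 0.5 and 1 TPM, FPKM, TPM from coverage, 2 rescalings (the median log2 ratio of the 175 genes averaging 1 TPM or more set to 0, and equal sums without the 20 most abundant genes), stricter filters and folds, and wider intervals. Scripts were tested on simulated data. Python 3.11.15 was used with scipy 1.17.1, pandas 2.3.3, matplotlib 3.10.9 and numpy 2.4.6.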

Additional observations from a re-analysis of the deposited data

How the results depend on the processing

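Directions depended on the scale between the libraries. The median log2 ratio of the 175 genes averaging 1 TPM or more was 0.59, toward CC5325. With 1 library each, a lean of the deposited scale and a difference between the strains cannot be told apart. With that median set to 0, PSAD1 (-0.17), PSAF1 (-0.18) and PSAN1 (-0.22) reversed, 3 genes were at least 2-fold higher in CC5325, and 1, PSAE1, at least 2-fold lower (log2 ratio -1.20). The median of the 10 genes was then 0.29 and the summed ratio 1.45. Rescaling without the 20 most abundant genes gave 3 higher and 1 lower, a median of 0.11 and a summed ratio of 1.14. PSAD1 (-0.45), PSAF1 (-0.45), PSAH1 (-0.035) and PSAN1 (-0.40) reversed. PSAG1, PSAI1 and PSAL1 stayed at least 2-fold higher under both rescalings, and PSAK1 (0.65 and 0.40) did not. Among the 891 genes averaging 0.1 TPM or more, 258 and 274 were at least 2-fold higher under the 2 rescalings, and 171 and 199 lower.

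A pseudocount of 1 TPM left PSAG1 alone past 2-fold, 1 gene, with a median of 0.35, and one of 0.5 TPM left 2, PSAG1 and PSAI1. A mean of at least 1 TPM left 2, a fold of 4 left 2, and the wider intervals, chosen after seeing the data, left 2 at the longest exonic length found and 0 at the shortest. Each of these counts of 2 includes PSAG1, with its listed 0 in CC125 taken as a count of 0. Without PSAG1, the member with the highest mean TPM, the summed ratio was 1.68. Asking for at least 10 estimated reads, unrounded, left 1 member (PSAF1) in CC125, while all 10 remained in CC5325. The background over genes of at least 0.1 TPM was also chosen after seeing the data. Coding lengths were not run, as no protein table was used here. No paired analysis was possible because each strain has 1 library, and no library could be left out.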
